A study of Mus musculus with 12 samples.

Results

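Expression of the Id genes and of genes of BMP signalling was examined in adherent neural stem (ANS) cells of the mouse as these differentiated. The set held 10 of the 22609 genes of the count tables. They were chosen by symbol, with earlier results of these data known. They are the ligand Bmp4, the type I receptors Bmpr1a and Bmpr1b, the Smads Smad6, Smad7 and Smad9, and the transcriptional regulators Id1, Id2, Id3 and Id4. ANS cells are a culture of neural progenitors derived from normal mouse brain at E14.5, grown as a monolayer, and polyA RNA of the whole culture was sequenced. Every library carries wt (wild type) in its name. In T0 (3 libraries) the cells proliferated in Euromed-N growth medium with 1% N2 and 20 ng/ml each of FGF2 and EGF. In T1 (3 libraries) they had spent 2 days in medium D1, with 0.5% N2, 1% B27, 10 ng/ml FGF2 and 2 ng/ml EGF, in which proliferation is much reduced. T2 (4 libraries) and T3 (2 libraries) were taken 2 and 10 days after the change to medium B, a mix of DMEM/F12 and Neurobasal on laminin with 0.5% N2, 1% B27, 10 ng/ml FGF2 and 20 ng/ml BDNF. FGF2 was thus present in every group, and neither a BMP nor a BMP antagonist is named among the additions to any medium.

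BMPs are secreted proteins that bind pairs of type I and type II receptors. The type I receptor then phosphorylates the receptor-activated Smads (Smad1, Smad5 and Smad9), which enter the nucleus with Smad4 and bind DNA, while Smad6 and Smad7 inhibit the pathway and are themselves induced by it. The Id genes are the best known direct targets. Id proteins are helix-loop-helix proteins without a DNA-binding region, which pair with the E proteins Tcf3, Tcf4 and Tcf12 and keep these from pairing with proneural factors. They are known for holding neural progenitors in an undifferentiated state.

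The libraries held 8910724 to 16631614 reads on genes. Levels are given as normalised read counts, as reads per 1000000 counted reads (CPM) scaled by the TMM method over the 12 libraries, and, where genes are compared with each other, as FPKM, which is also scaled to transcript length. A mean is followed by its SD and the number of libraries (n). T0 replicate 3 stood apart from the other T0 libraries: the mean chi-square per gene between counts was 3.28 for T0 replicates 1 and 2, and 101 and 105 when either was set against replicate 3. It had 7 counts of the astrocyte gene Gfap, against 1958 and 2144. All comparisons with T0 share these 3 libraries, and the values of the 10 genes are therefore given with and without replicate 3. Fits without replicate 3 rest on 2 T0 libraries that differ less than any other pair within a group (the next value was 5.34, in T1). Such fits leave out much of the spread of T0, and their standard errors and p-values may be too small. Of the other pathway genes listed, 20, 25 and 5 were called at T1, T2 and T3, beside 31.9%, 43.3% and 4.72% of all genes tested. The same shares stand beside the counts of each list below that are from all libraries, markers included. Beside counts without T0 replicate 3 stand 50.1%, 52.1% and 18.4% of all genes tested at T1, T2 and T3. Such counts alone say nothing particular about a list. All of the pathway genes called were called in the same direction without T0 replicate 3, so that only calls gained are named for them. Of 8 neuronal marker genes, 5, 6 and 7 could be tested at T1, T2 and T3, of which 5, 6 and 3 rose, with median log2 fold changes of 3.08, 3.90 and 3.48. The 7 progenitor markers summed to 5930 to 8300 CPM at T0 and 5090 to 7130 later, with 2, 3 and 0 lower at T1, T2 and T3, the 8 astrocyte markers to 2790 to 4510 and 2600 to 4070, with 0, 2 and 0 lower, and the 8 oligodendrocyte markers to 3160 to 3630 and 3960 to 5980, with 1, 3 and 0 higher. Without T0 replicate 3 these numbers were 3, 3 and 2 progenitor markers lower (2, 1 and 1 higher), 4, 4 and 6 astrocyte markers lower (0, 1 and 1 higher), 3, 5 and 4 oligodendrocyte markers higher (1 lower each time), and 5, 6 and 5 neuronal markers higher. All 8 microglial markers had at most 3 counts in every library, and their summed level lay between 0.0754 and 0.580 CPM over all libraries. The 8 endothelial markers summed to between 2.01 and 4.21 CPM, with Cdh5 and Cldn5 at most at 3 counts, and the 8 mural cell and fibroblast markers to between 0.452 and 1.94 CPM, with Pdgfrb and Lum at 0 throughout. In RNA of whole cultures, a smaller number of cells of a type and less RNA in each of them cannot be told apart.

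Each later time point was first compared with T0, by the quasi-likelihood test of edgeR with p-values adjusted over all genes tested. At T1, 8 of the 10 genes had enough reads to be tested, of which Id3 fell and Bmpr1b rose. These are 2 of 8, beside 31.9% of all 12364 genes tested (16.8% lower and 15.1% higher). At T2, Id3 and Smad6 fell and Bmpr1b rose, which is 3 of 8, beside 43.3% of 12607 genes (21.8% lower and 21.4% higher). At T3, 0 of 8 passed the threshold with edgeR, beside 4.72% of 12721 genes (1.41% lower and 3.31% higher), and the unadjusted p of 2 of them, Id3 and Bmpr1a, was under 0.05. DESeq2 called 2 at T1, 4 at T2 and 1 at T3, beside 38.9%, 47.5% and 16% of all genes. When T0 replicate 3 was left out, edgeR called 5 at T1, 5 at T2 and 3 at T3, beside 50.1%, 52.1% and 18.4% of all genes. At T1 and T2 the share of the 8 genes called was close to or under that of all genes, so that the count itself says nothing particular about them. In 1 fit of all 12 libraries, the test for any difference over T0 to T3 was passed by Id3 (adjusted p = 0.0016), Bmpr1b (0.0018) and Bmpr1a (0.016, and 0.077 without T3 replicate 4), which is 3 of 8 beside 41.8% of 12952 genes. DESeq2 called 4 (48.5% of all genes), and edgeR without T0 replicate 3 called 5 (47%).

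**Figure D1:**
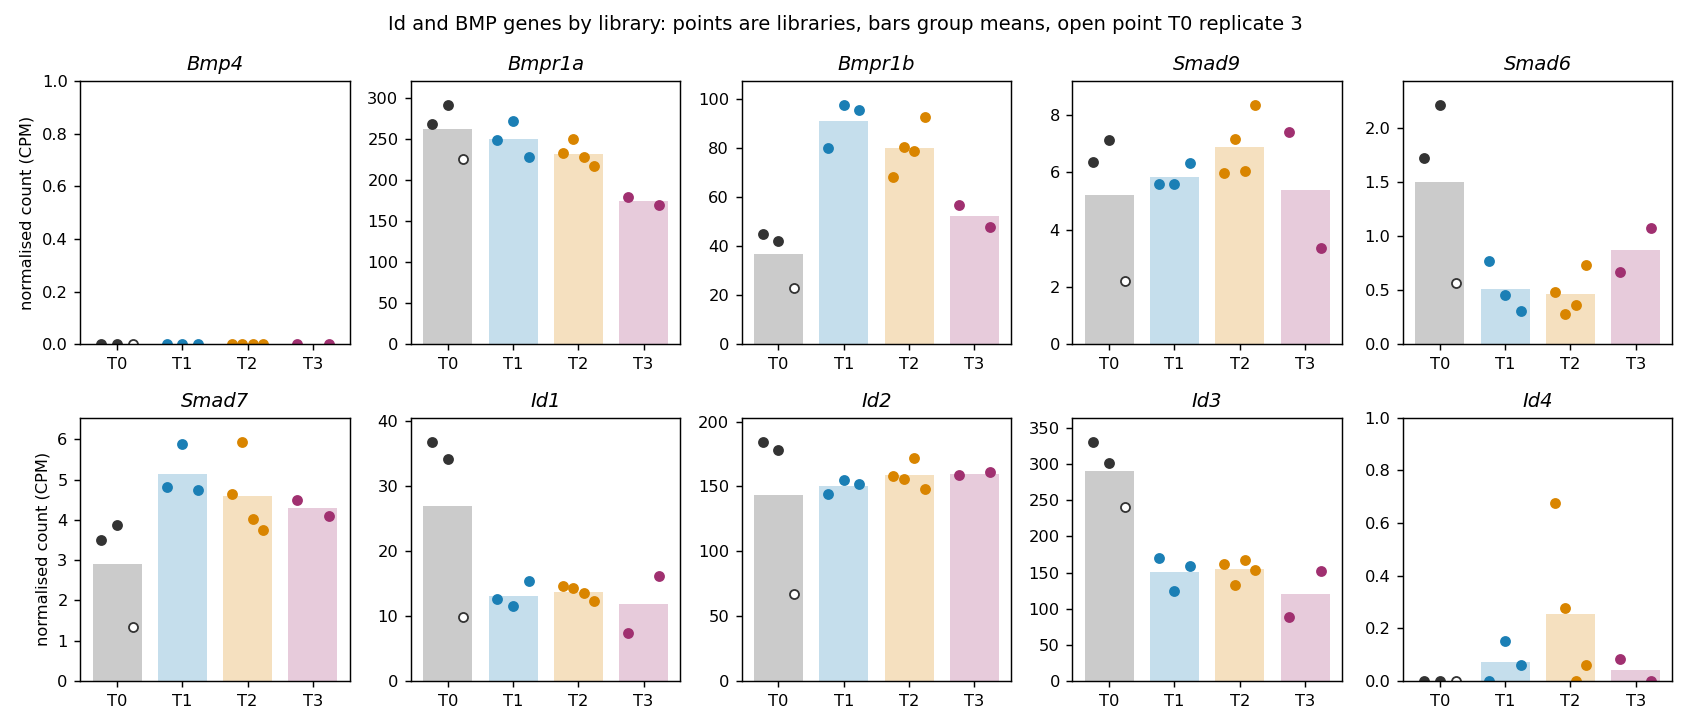
Normalised count (CPM, vertical axis from 0, a scale of its own for each gene) of the 10 genes in each library at T0, T1, T2 and T3; points are libraries, bars group means, and the open point is T0 replicate 3. Id3 lies lower and Bmpr1b higher at T1 and T2 than in any T0 library, and the open point is the lowest of T0 for every gene with reads there.

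Letters of 2 Smad-binding motifs were looked for, on both strands, in the promoters of these genes, taken from RefSeq (GRCm38.p6) as the 250 bases before and 50 bases after the start of transcription. 8 of the 10 genes had at least 1 such promoter in the table, Id1 and Smad7 not among them. The palindrome GGCGCC, a GC-rich core to which BMP-activated Smads are known to bind, was found in Id2, Id4, Bmpr1a and Smad9, and in 11.9% of all 32851 promoters. The composite GNCGNCNNNNNGTCT, which joins such a core to the GTCT box of Smad4 and is known from BMP-responsive elements, was found in Smad6 alone of the 8, and in 0.667% of all promoters. The 5 stretches of 30 bases are shown 5′ to 3′ on the strand of the gene, with the matched letters in capitals, since Smad6 and the Id genes are known targets of the pathway.
Id2: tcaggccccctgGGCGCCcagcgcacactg
Id4: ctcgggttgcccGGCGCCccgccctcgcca
Bmpr1a: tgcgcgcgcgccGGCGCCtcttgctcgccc
Smad9: gcacggccgcctGGCGCCcttccagcgcgg
Smad6: ccgcggaGCCGCCAAAGTGTCTagactggc
On GRCm38.p6 these lie at chr12:25096306-25096335 (minus), chr13:48260956-48260985 (plus), chr14:34502727-34502756 (minus), chr3:54755519-54755548 (plus) and chr9:64022052-64022081 (minus). The first matched base lies 231, 148, 198, 51 and 15 bases before the start. Id3, the Id gene called in the edgeR tests of each later time point with T0, with all libraries, held neither set of letters in its window. The E-box CAGCTG, a form bound by E proteins and their partners, was found in Id2 and Bmpr1b and in 16.3% of all promoters. A match of letters does not show that a factor is bound. The lack of a match does not show that none is, and sequence outside these windows was not searched.

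Bmp4, a ligand of the pathway, was not detected. Its gene lies at chr14:47003195-47010344 on the minus strand (mm9) with 4 exons. No read was counted on it in any of the 12 libraries, which together hold 153485909 counts on genes, and 3 counts of that total, the limit that a count of 0 allows, correspond to 0.0195 CPM. In all, 4234 genes (18.7%) had 0 counts in every library. Of the other 12 BMP and GDF ligands listed, Bmp7 was the one with a substantial level, with 8678 counts over the libraries, and each of the other 11 had at most 21 counts in any library. Bmp7 had 44.4 ± 30.8 CPM (SD, n = 3) at T0, from 25.6 to 80.0, and 63.0 ± 8.53 (n = 3) at T1. It was not called at any time point with all libraries (adjusted p = 0.41, 0.31 and 0.67), and was higher at all 3 without T0 replicate 3, which held the 80.0 (log2 fold change 1.23, 1.23 and 1.12, adjusted p = 8e-05, 4.7e-06 and 0.013). Gdf6, a BMP relative, had 0 counts in the 3 T0 libraries, 2 to 4 at T1, 8 to 21 at T2 and 12 to 14 at T3. Set against 3 counts in each T0 library, Gdf6 was at least 4.89-fold higher in T2 (adjusted p = 0.0011). For T3 the bound was 5.73-fold (adjusted p = 0.049).

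The type I receptors Bmpr1a and Bmpr1b differed in their course. Bmpr1a (chr14:35223920-35316527, minus strand, 13 exons) is found in most tissues and in neural progenitors. Its level was 268, 292 and 226 CPM in T0 replicates 1 to 3, 249.5, 273 and 228 at T1, 233.5, 251, 229 and 217 at T2, and 179.6 and 169 at T3. The T1 and T2 libraries overlapped with T0, and both T3 libraries lay below every other library. At T1 and T2 the log2 fold change was -0.08 (SE 0.14, adjusted p = 0.67) and -0.17 (0.12, 0.27), with 95% intervals from -0.40 to 0.24 and from -0.44 to 0.10. At T3 it was -0.57 (SE 0.18, adjusted p = 0.11), and -0.67 (0.11, 0.024) without T0 replicate 3, where Bmpr1a was called lower at T2 as well (-0.27, SE 0.09, adjusted p = 0.025). The fit of all 12 libraries called it at T3 (-0.59, SE 0.13, adjusted p = 0.0066). The groups did not overlap at T3, as for 25.4% of all genes in that direction.

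Bmpr1b (chr3:141500100-141832389, minus strand, 11 exons), the second type I receptor, was higher in differentiating cells. Its level was 45.0, 42.2 and 22.7 CPM at T0, 80.0, 97.6 and 95.5 at T1, 68.2, 80.3, 78.8 and 92.6 at T2, and 56.9 and 47.8 at T3. Every library of T1, T2 and T3 lay above every T0 library, and both T3 libraries lay below those of T1 and T2. Groups that do not overlap in the upward direction were found for 29.1%, 27.6% and 24.6% of genes at T1, T2 and T3. Bmpr1b was 2.46-fold higher at T1 (log2 fold change 1.30, SE 0.26, adjusted p = 0.011) and 2.19-fold higher at T2 (1.13, SE 0.23, adjusted p = 0.0055). At T3 the log2 fold change was 0.53 (SE 0.32, adjusted p = 0.35). Without T0 replicate 3, the lowest of T0, the values were 1.05, 0.88 and 0.28 (adjusted p = 7.6e-05, 0.00025 and 0.22), and without T1 replicate 2 the T1 difference had an adjusted p of 0.051.

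Per length, Bmpr1a was the more abundant of the type I receptors throughout, with 42.1 ± 6.01 FPKM (SD, n = 3) at T0 against 6.27 ± 1.59 for Bmpr1b. The ratio of Bmpr1a to Bmpr1b FPKM was 5.89, 6.73 and 8.03 in the T0 libraries, and between 2.04 and 3.20 in the 9 later ones. The ranges did not overlap. In exact two-sided permutation tests of this ratio p was 0.1 at T1 (n = 3 and 3), 0.0571 at T2 (n = 4 and 3) and 0.2 at T3 (n = 2 and 3), in each case the smallest value that these numbers of libraries allow, and adjusted over 6 such tests 0.15, 0.15 and 0.2.

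Among the 10 other receptors and co-receptors, 9 could be tested. At T1, Neo1 and Acvr2a rose and Acvrl1 and Eng fell, and the same 4 genes did so at T2. Neo1, a receptor of repulsive guidance molecules that acts in BMP signalling, rose from 297 ± 42.2 CPM (SD, n = 3) at T0 to 609 ± 30.1 (n = 3) at T1 (log2 fold change 1.02, SE 0.14, adjusted p = 0.0027). Acvrl1, the type I receptor best known from endothelium, had 17 to 28 counts at T0 and 0 to 3 at T1, which is at least 6.64-fold lower (adjusted p = 0.0079). Eng, its endothelial co-receptor, was 4.68-fold lower at T1 (log2 fold change -2.23, SE 0.45, adjusted p = 0.012). The median log2 fold change over the 9 genes was 0.40, 0.29 and 0.13 at the 3 time points, against -0.01, 0.00229 and -0.01 over all genes. Without T0 replicate 3, Acvr1 and Rgma were called higher as well at T1 and T2.

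**Figure D2:**
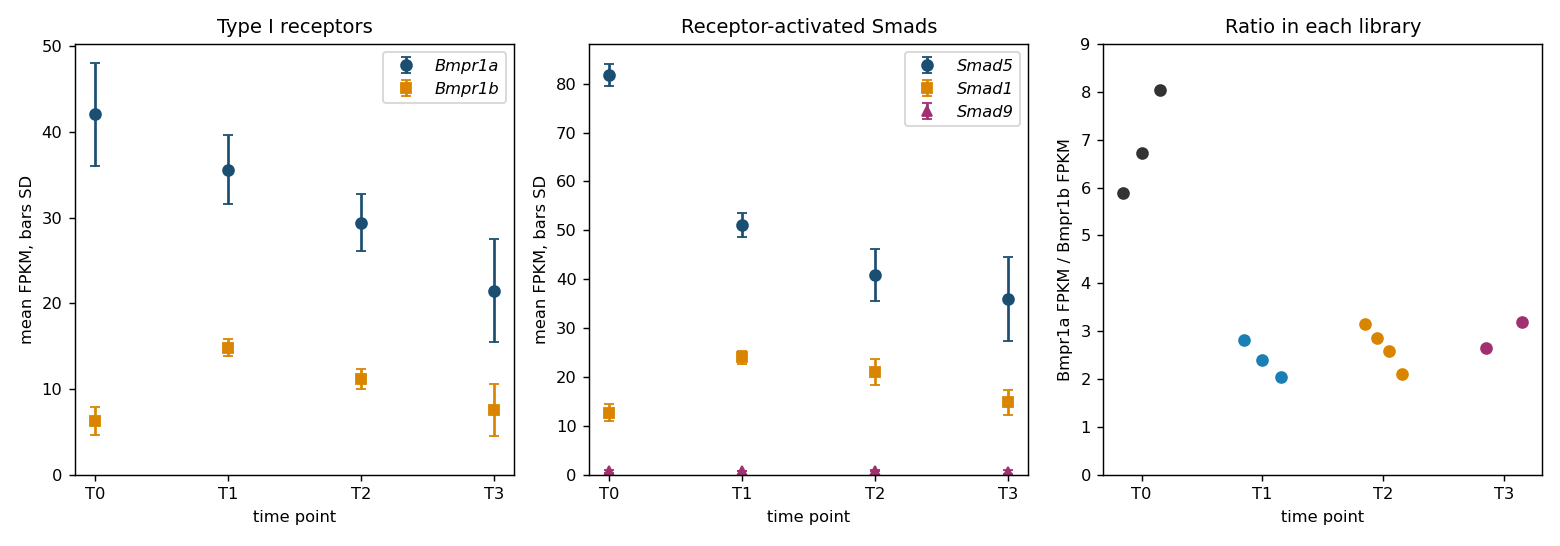
Mean FPKM with SD at each time point (from 0) for the type I receptors (left) and the receptor-activated Smads (middle), and the ratio of Bmpr1a to Bmpr1b FPKM in each library (right). The ratio lies between 5.89 and 8.03 at T0 and between 2.04 and 3.20 later, and Smad9 stays near the bottom of its panel.

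Smad9 (chr3:54559504-54605179, plus strand, 6 exons), 1 of the 3 receptor-activated Smads, was expressed at a low level. It had 6.35, 7.13 and 2.19 CPM at T0, 5.58, 5.58 and 6.33 at T1, 5.99, 7.15, 6.03 and 8.35 at T2, and 7.41 and 3.35 at T3. Its groups overlapped in every comparison and it was not called in any, with adjusted p of 0.80, 0.40 and 0.96 against T0. The direction turned without T0 replicate 3 at T1 (log2 fold change 0.15 with it and -0.22 without) and at T3 (0.06 and -0.30). Smad9 made up 0.352% to 1.57% of the summed FPKM of Smad1, Smad5 and Smad9 in the libraries.

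The other receptor-activated Smads changed in opposite directions. Smad5 held 84.4% to 88.1% of that sum at T0 and 64.1% to 70.5% in later libraries, and Smad1 11.6% to 14.6% and then 27.9% to 34.5%. Smad1 rose at T1 and T2 (log2 fold change 0.95, SE 0.16, adjusted p = 0.0064, and 0.87, SE 0.17, 0.004). Smad5 fell at both (-0.58, SE 0.12, adjusted p = 0.011, and -0.80, SE 0.12, 0.0013). Smad4, the common partner, had 138 ± 4.77 CPM (SD, n = 3) at T0 and was not called at T1, T2 or T3 (adjusted p = 0.57, 0.86 and 0.76). Smad5 was called lower at T3 too without T0 replicate 3 (-0.90, SE 0.12, adjusted p = 0.016).

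Smad6 (chr9:63800953-63869866, minus strand, 4 exons), an inhibitor that acts mainly on BMP receptors, had few reads. Its counts were 23, 32 and 8 at T0, 9, 6 and 5 at T1, 5, 3, 4 and 12 at T2, and 8 and 10 at T3. T0 replicates 1 and 2 were higher than every later library, and T0 replicate 3 lay among the later ones, so that the groups overlapped. The level fell from 1.50 ± 0.85 CPM (SD, n = 3) at T0 to 0.466 ± 0.199 (n = 4) at T2, with a log2 fold change of -1.61 (SE 0.53, adjusted p = 0.038). At T1 it was -1.60 (SE 0.60, adjusted p = 0.083) and at T3 -0.78 (SE 0.70, adjusted p = 0.52). With T0 replicate 3 left out Smad6 was called lower at T1 (-2.01, adjusted p = 0.0031) and T2 (-1.98, adjusted p = 0.0018), and the T2 call was lost without T2 replicate 1, 2 or 3 (adjusted p = 0.079, 0.093 and 0.091) and with a replicate block (0.076). Smad6 had too few reads to be tested at T2 without T0 replicate 1 or 2 or T2 replicate 4, or where at least 10 counts were asked of every library.

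Smad7 (chr18:75527183-75555589, plus strand, 4 exons), which inhibits both the BMP and the TGF-beta branch, did not follow Smad6. It had 3.51, 3.88 and 1.34 CPM at T0, 4.81, 5.88 and 4.75 at T1, 4.64, 5.94, 4.02 and 3.74 at T2, and 4.49 and 4.10 at T3. The T1 and T3 libraries lay above all of T0, and the T2 libraries overlapped with it. The log2 fold change was 0.81 (SE 0.39, adjusted p = 0.15), 0.65 (0.37, 0.18) and 0.57 (0.51, 0.52), and 0.46, 0.30 and 0.23 without T0 replicate 3 (adjusted p = 0.088, 0.31 and 0.56). Of the 9 other intracellular inhibitors, Pmepa1, Ski and Smurf2 rose at T1, Pmepa1, Ski and Smurf1 at T2, and 0 of 9 at T3 (median log2 fold change 0.31, 0.21 and 0.14). Pmepa1, which binds receptor-activated Smads and is induced by TGF-beta, rose 2.80-fold at T1 (log2 fold change 1.49, SE 0.14, adjusted p = 0.00067). With T0 replicate 3 left out, Smurf1 was called higher at T1, Skil lower at T2, and at T3 Pmepa1 and Smurf1 higher and Tob2 lower.

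Id3 was the Id gene called against T0 in the edgeR tests on the 2 groups compared, with all their libraries. Id3 (chr4:135699412-135701670, plus strand, 3 exons) had 331, 302 and 240 CPM at T0, 169.6, 124 and 159 at T1, 162, 133, 168 and 154 at T2, and 88.7 and 152 at T3. All 3 T0 libraries lay above all 9 later ones. Groups that do not overlap in the downward direction were found for 27.2% of genes at T1 and 26.6% at T2. Id3 fell 1.94-fold at T1 (log2 fold change -0.96, SE 0.18, adjusted p = 0.0085) and 1.88-fold at T2 (-0.91, SE 0.14, adjusted p = 0.0013). At T3 the change was -1.26 (SE 0.29, adjusted p = 0.066), with DESeq2 -1.25 (adjusted p = 0.0013), and in the fit of all 12 libraries -1.27 (adjusted p = 0.0021). Without T0 replicate 3 it was -1.08, -1.03 and -1.39 (adjusted p = 2e-04, 2.6e-05 and 0.03). Mki67, a marker of cycling cells, also had a higher mean at T0, 677 CPM against 56.6, 77.8 and 254 in T1, T2 and T3. The courses of Mki67 and Id3 differed otherwise. From T2 to T3 the mean of Mki67 rose, while that of Id3 went from 154 to 120 CPM. Within T0, Mki67 was highest in replicate 3 (860.0 CPM), where Id3 was lowest. The part of Mki67 in the difference of Id3 was not tested.

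Id1 (chr2:152561987-152563146, plus strand) was lower in all later libraries than in T0 replicates 1 and 2, and T0 replicate 3 lay among or below the later ones. Its longest annotated coding transcript is an unspliced model of 1160 bases, which spans the whole gene. It had 36.8, 34.1 and 9.89 CPM at T0, 12.53, 11.45 and 15.4 at T1, 14.6, 14.3, 13.4 and 12.2 at T2, and 7.41 and 16.2 at T3. The value of T0 replicate 3 lay below all T1 and T2 libraries and between those of T3. In the same library Gfap and Aqp4, another astrocyte gene, were low (7 and 109 counts, against 1958 and 2144 and 1173 and 1310 in the other T0 libraries). Mki67 was high there (860.0 CPM against 569 and 602). Not every astrocyte marker was low in it, as Aldoc had 26039 to 30494 counts over the T0 libraries. The part of these genes in the Id levels was not tested. With all libraries Id1 was not called by edgeR on the 2 groups compared, with log2 fold changes of -1.04 (SE 0.46, adjusted p = 0.12), -0.98 (0.38, 0.067) and -1.19 (0.65, 0.30). With T0 replicate 3 left out Id1 was called lower at all 3 time points, with -1.44 (SE 0.14, adjusted p = 5e-05), -1.38 (0.11, 7.8e-06) and -1.59 (0.36, 0.042). These smaller standard errors rest on the 2 T0 libraries that lie close together. In the same fits 4, 4 and 6 of the 8 astrocyte markers were lower and 0, 1 and 1 higher. Aqp4 was lower at all 3 time points (-1.63, -1.39 and -1.58, adjusted p = 4.7e-05, 0.00096 and 0.0069). Gfap was lower at T1 and T3 (-1.52 and -2.35, adjusted p = 0.00033 and 0.007) and not called at T2 (-0.23, adjusted p = 0.54). Slc1a2 was higher at T2 (0.73, adjusted p = 0.00048) and S100b at T3 (0.65, adjusted p = 0.042). The part of the astrocyte markers in the difference of Id1 was not tested. At T2 Id1 was also called by DESeq2 (-0.98, adjusted p = 0.029) and in the fit of all 12 libraries (-0.98, adjusted p = 0.044), with a standard error of 0.39 and 0.37.

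Id2 (chr12:25778666-25780957, minus strand, 3 exons) had nearly the same level in all libraries but 1. It had 184.5, 178 and 67.2 CPM at T0, 144, 155 and 152 at T1, 158, 156, 172 and 148 at T2, and 159 and 161 at T3. T0 replicates 1 and 2 were the highest libraries and T0 replicate 3 the lowest, while the 9 later libraries spanned 144 to 172 CPM. The log2 fold change was 0.06 (SE 0.35, adjusted p = 0.91), 0.15 (0.30, 0.71) and 0.17 (0.43, 0.83), with 95% intervals from -0.77 to 0.88, from -0.54 to 0.84 and from -0.89 to 1.23. Leaving out T0 replicate 3 turned the direction, to -0.28 (SE 0.07, adjusted p = 0.013), -0.19 (0.08, 0.081) and -0.17 (0.10, 0.29), so that Id2 was called lower at T1.

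Id4 (chr13:48356796-48359405, plus strand, 3 exons), which is known from neural stem cells of the adult brain and from astrocytes, was at the limit of detection. It had 15 counts over all 12 libraries: 0 in each of the 3 T0 libraries, 0, 2 and 1 at T1, 7, 3, 0 and 1 at T2, and 1 and 0 at T3. T2 replicate 1 held 7 of them. No test was made, and at this depth a difference between the groups was not detectable.

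**Figure D3:**
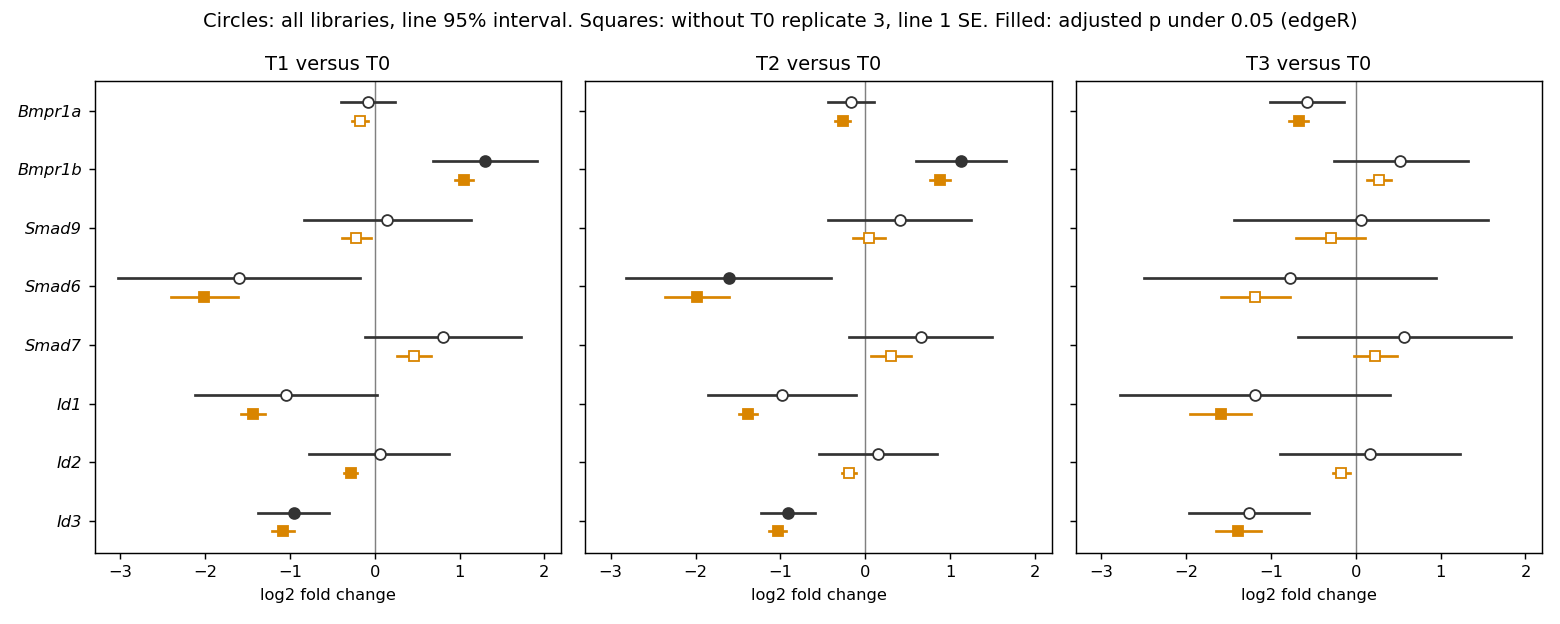
Log2 fold change against T0 (horizontal axis) of the 8 genes that could be tested at T1, T2 and T3. Circles with 95% intervals are from all libraries, squares with lines of 1 SE from the fit without T0 replicate 3, and filled symbols have an adjusted p under 0.05 (edgeR); Id1 is filled at T1, T2 and T3 only without that library, and Id2 lies above 0 with all libraries and below 0 without it.

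Per length, Id3 and Id2 made up most of the Id transcripts. At T0 the order by mean FPKM was Id3 (216), Id2 (92.3) and Id1 (25.2), with no overlap between neighbours in that order. At T1 and T2 the libraries of Id3 and Id2 overlapped, with 107 and 96.7 FPKM at T1 and 102 and 95.4 at T2, and Id1 was at 12.4 and 12.03. At T3 Id2 came first with 90.4 FPKM and Id3 followed with 74.05, again with overlap. The share of Id3 in the Id sum was 59.7% to 76.3% at T0, 44.6% to 53.1% at T1, 45.4% to 51.0% at T2, while the T3 libraries had 36.3% and 48.0%. The share of Id2 was 19.6% to 31.5% at T0 and 41.6% to 59.7% later. These ranges did not overlap.

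The summed FPKM of the 4 Id genes was 402, 355 and 245 at T0 and between 161 and 231 in the later libraries. Every later library lay below all of T0, T0 replicate 3 being the nearest. In exact two-sided permutation tests of the sum p was 0.1 at T1 (n = 3 and 3), 0.0571 at T2 (n = 4 and 3) and 0.2 at T3 (n = 2 and 3), again the smallest possible, and 0.15, 0.15 and 0.2 adjusted over the 6 tests. The E proteins Tcf3, Tcf4 and Tcf12, to which Id proteins bind, summed to 347 to 411 FPKM at T0, 414 to 465 at T1, 311 to 431 at T2, and the T3 libraries were at 250.1 and 384. FPKM and CPM differed in their course. From T0 to T3 mean CPM went from 862 to 1058 for Tcf4 and from 779 to 783.5 for Tcf12. Mean FPKM went from 155 to 145 and from 164 to 133, and Tcf3 fell by both measures. Comparisons of the Id and E protein sums and of their ratio between time points thus depend on the FPKM scaling. Tcf3 fell at T1 and T2 (log2 fold change -0.66, SE 0.14, adjusted p = 0.015, and -0.71, SE 0.13, 0.0029), and Tcf12 rose at T1 (0.54, SE 0.15, adjusted p = 0.033). Tcf4 was not called at T1, T2 or T3. The ratio of the Id sum to the E protein sum was 0.706 to 0.976 at T0, 0.419 to 0.557 at T1, 0.451 to 0.717 at T2, and 0.420 and 0.746 in the T3 libraries, so that the T1 libraries lay below T0 and those of T2 and T3 overlapped with it.

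**Figure D4:**
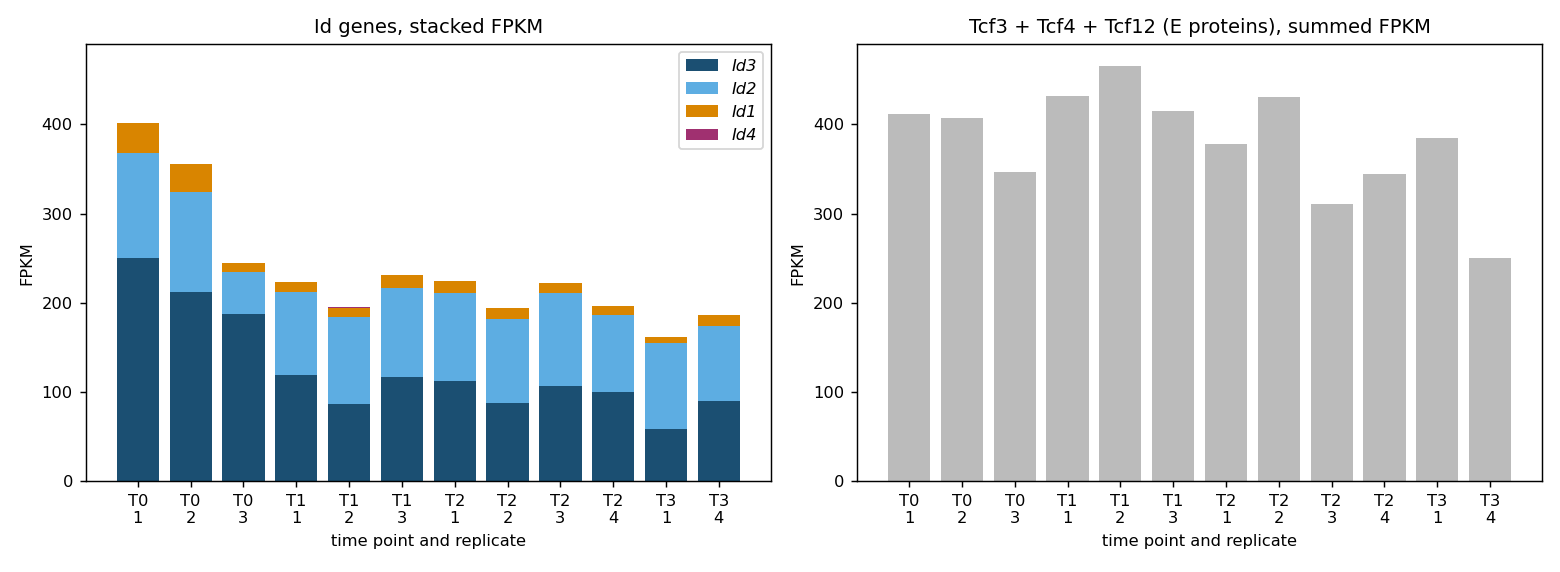
FPKM of the 4 Id genes, stacked (left), and summed FPKM of the E proteins Tcf3, Tcf4 and Tcf12 (right), on the same vertical scale from 0, with 1 bar per library. The Id bars lie between 245 and 402 at T0 and between 161 and 231 later, Id3 is the darkest segment, and Id4 is too low to be seen.

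Of the 14 listed bHLH factors that pair with E proteins, 6 could be tested at T1 and T2. Neurog2, a proneural factor, rose at both time points, from 0.242 ± 0.226 CPM (SD, n = 3) at T0 to 13.3 ± 4.98 (n = 3) at T1 and 17.6 ± 5.28 (n = 4) at T2 (log2 fold change 5.74, SE 0.68, adjusted p = 0.0016, and 6.15, SE 0.56, 0.00013). Olig1, an oligodendrocyte lineage factor, rose at T2 (0.34, SE 0.11, adjusted p = 0.043). The median of the factors tested was 0.20 at T1, 0.34 at T2 and 0.47 over the 7 tested at T3, where 0 passed with edgeR. Without T0 replicate 3, Neurog2 (5.15, 5.57 and 3.83, adjusted p = 7.4e-05, 8.1e-06 and 0.022) and Olig1 were called higher at all 3 time points, as was Olig2, Tal1 at T2 and Neurod1 at T3 (2.14, SE 0.34, adjusted p = 0.02). Neurod4, another bHLH factor of neurogenesis, had 55, 68 and 0 counts in the T0 libraries and at most 2 in any later one. It could not be tested at T1 and T2 with all libraries and had an adjusted p of 0.18 at T3, and without T0 replicate 3 it was called lower at all 3 (adjusted p = 4.9e-05, 8e-06 and 0.01).

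The T1, T2 and T3 libraries were then compared with each other. Between T2 and T1, 0 of the 7 genes tested passed the threshold with edgeR, 0 had an unadjusted p under 0.05 and DESeq2 called 0, beside 0.63% of all 12382 genes called by edgeR (0.0565% lower and 0.573% higher) and 2.55% by DESeq2. The T1 and T2 libraries overlapped for all 7, beside 5.52% of genes that lay wholly lower and 6.56% wholly higher. The log2 difference of Id3, T2 against T1, was 0.04, with a 95% interval from -0.23 to 0.30, and that of Id1 0.05, from -0.25 to 0.35. Bmpr1b was lower at T2 in each of the 3 pairs of same-numbered libraries, with a log2 difference of -0.18 (SE 0.11, adjusted p = 0.58) without and -0.26 (SE 0.06, adjusted p = 0.074) with the replicate block. Between T3 and T2, 0 of 7 passed with edgeR, beside 1.19% of 12599 genes (0.691% lower and 0.5% higher), 2 had an unadjusted p under 0.05 and DESeq2 called the same 2, beside 6.32% of all genes. These were the receptors. Bmpr1b was lower at T3 than at T2 by a log2 difference of -0.605 (SE 0.14, adjusted p = 0.075 with edgeR and 0.0089 with DESeq2). Bmpr1a differed by -0.41 (SE 0.10, adjusted p = 0.091 with edgeR and 0.012 with DESeq2). For both, the T3 libraries lay below all T2 libraries, as for 12.9% of genes. The T3 libraries differed from each other in Id1 (7.41 and 16.2 CPM), Id3 (88.7 and 152) and Smad9 (7.41 and 3.35).

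The antagonists and other targets of the pathway completed the comparison. Of 11 extracellular antagonists and modulators, 6 could be tested at T1 and T2 and 7 at T3. Bmper, Nbl1 and Twsg1 rose at T1, the same 3 and Chrd at T2, and Nbl1 and Nog at T3, while 0 fell with edgeR at T1, T2 and T3. The median log2 fold change was 0.81, 0.96 and 0.91. Nbl1, a secreted BMP antagonist, rose from 29.99 ± 2.64 CPM (SD, n = 3) at T0 to 129.7 ± 4.10 (n = 3) at T1 and 55.7 ± 5.09 (n = 2) at T3, and the T3 level was lower than at T2 (log2 difference -1.22, SE 0.19, adjusted p = 0.038). Bmper, which binds BMPs outside the cell, rose 4.75-fold at T1 (log2 fold change 2.25, SE 0.38, adjusted p = 0.0064) and was lower at T3 than at T2 (-1.29, SE 0.14, adjusted p = 0.016). Nog, which encodes the antagonist Noggin, had 0 or 1 count in the T0 libraries and 39 and 8 at T3, at least 9.58-fold higher than 3 counts in each T0 library (adjusted p = 0.044). The bound was 15.1 with T3 replicate 1 alone and 4.02 with T3 replicate 4 alone. Sostdc1, which encodes a secreted BMP antagonist, was, without T0 replicate 3, called higher at all 3 time points (1.62, 2.06 and 1.48, adjusted p = 7.4e-05, 7.1e-06 and 0.024), Chrd at T1 and Bmper at T3 (1.29, adjusted p = 0.026).

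Of 8 other genes known as BMP targets, 5 could be tested. Atoh8, a bHLH factor, rose from 1.03 ± 0.22 CPM (SD, n = 3) at T0 to 10.8 ± 1.16 (n = 3) at T1, with log2 fold changes of 3.37 (SE 0.26, adjusted p = 0.00049), 2.97 (0.32, 0.00025) and 2.81 (0.39, 0.025) at T1, T2 and T3. Tsc22d1, a leucine zipper protein, rose at all 3 (0.74, 0.85 and 0.92, adjusted p = 0.0062, 0.00079 and 0.044), and Gata2 at T2 (0.96, SE 0.32, adjusted p = 0.039). With edgeR and all libraries 0 of the 5 fell at T1, T2 or T3, and without T0 replicate 3 Hey1 was called lower at each and Runx2 higher at T2. In the TGF-beta and activin branch, Tgfb1, Tgfb3 and Tgfbr2 fell at T1 and T2, and Tgfb2 rose at T2. At T3, 0 of 11 genes of this branch passed with edgeR. Acvr1b and Inhbb were, without T0 replicate 3, called higher at T1 and T2, and Tgfb2 and Tgfbr1 at T1. The calls at T3 of Nbl1, Nog, Atoh8 and Tsc22d1 were lost with only 1 T3 library, which is assumed to vary as the T0 libraries do (adjusted p from 0.15 to 0.3 without replicate 1, where Nog could not be tested, and from 0.08 to 0.13 without replicate 4), and that of Gdf6 could not be tested then.

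**Figure D5:**
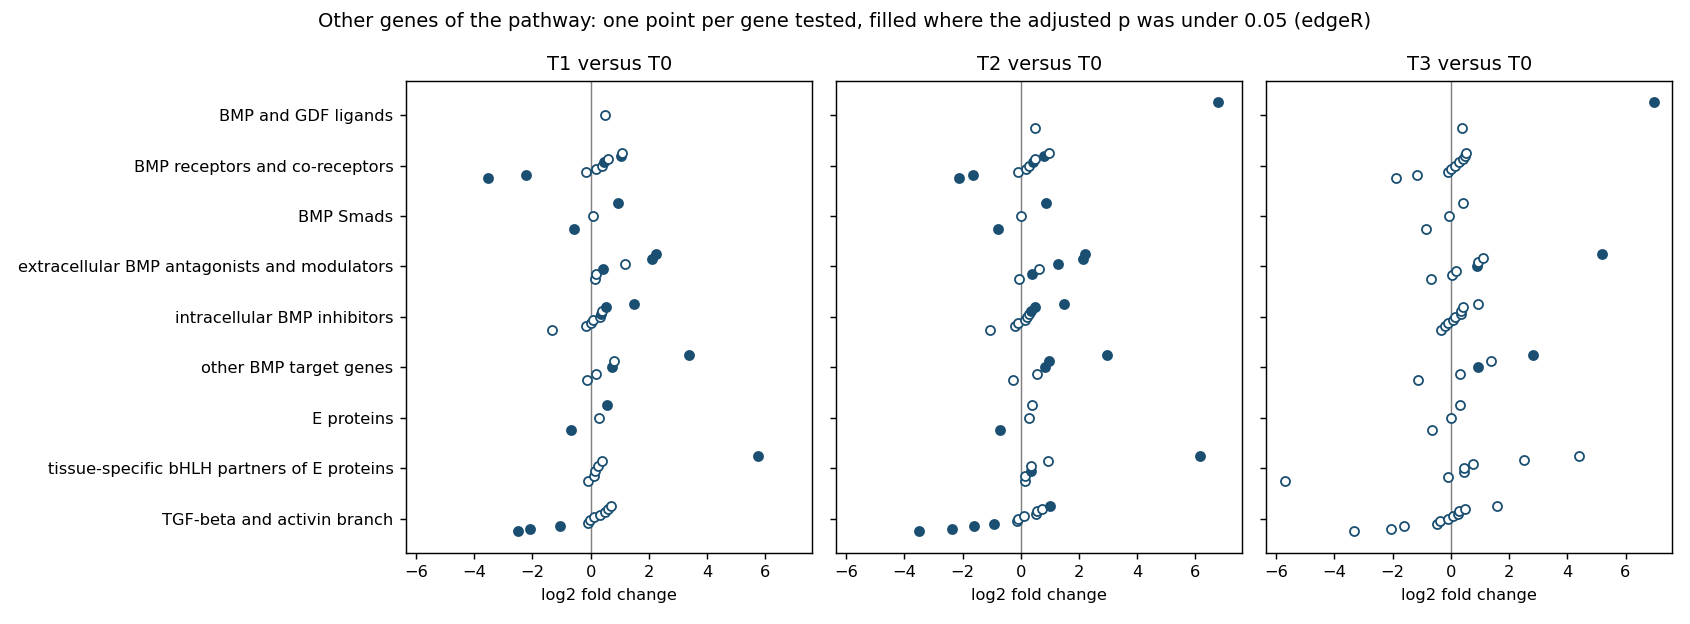
Log2 fold change against T0 (horizontal axis) of the other listed genes of the pathway at T1, T2 and T3, with 1 point per gene tested in each list and filled points for an adjusted p under 0.05 (edgeR). The points farthest to the right are fitted values of genes with few T0 counts (Gdf6, Neurog2, Nog), for which the size of the fold is uncertain, and the antagonists that are filled all lie to the right of 0.

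Genes with a course like that of each Id gene were sought by Pearson's r of log2 CPM over the 12 libraries, among the 11530 genes whose log2 CPM averaged 1 or more. For Id1 these were Col6a2 (r = 0.951), Rgs20 (0.944) and Ltbp1 (0.940), for Id2 AI646023 (0.973), Gdpd2 (0.965) and C920021L13Rik (0.965), and for Id3 Wwtr1 (0.968), Tspo (0.964) and Plcd3 (0.963). Wwtr1, the transcriptional coactivator TAZ, went from a T0 mean of 108 CPM to means of 56.3, 55.5 and 45.7 in the later groups. Among the Id genes r was 0.80 for Id1 with Id3, 0.46 for Id1 with Id2 and -0.10 for Id2 with Id3. These values describe libraries that share their time points, T0 replicate 3 among them.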

How the data were processed

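Total RNA was made into TruSeq libraries (polyA RNA) and sequenced on an Illumina HiScanSQ by the authors, who aligned reads to mm9 with TopHat 2.0.6. The submitters' processing notes also name HTSeq 0.6.0 and DESeq2 1.0.0. The strand setting of the counting is not given in the sources used here, and antisense genes overlap Id4 and Bmp4. The authors deposited raw counts per gene for each library, and a table of FPKM values, whose tool is not given in the sources used here. The 5 entries that name no gene entered neither the library sizes nor the tests (13.3% to 24.1% of uniquely aligned reads fell on no gene), and 0 columns of values belonged to other samples.

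Counts were tested with edgeR 4.0.16 in R 4.3.3 (TMM, filterByExpr, quasi-likelihood test, Benjamini-Hochberg adjustment, threshold 0.05), on the 2 groups compared. FPKM values were used for levels, sums and ratios, and for the permutation tests, but not in the edgeR and DESeq2 fits. Where no library of 1 group had over 3 counts, a bound replaced the fold. The fits were tested on simulated counts. DESeq2 1.42.0, other filters and scalings, leaving out each library, a replicate block and only the libraries numbered 1 and 2 were tried as alternatives.

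Same-numbered T1 and T2 libraries deviated together (r = 0.32, 0.47 and 0.23), so a block by number was tried for them. The labels number the samples and name no pairing, and the main test left the numbers out. The block changed no call there. The p-values set each difference against the spread between these libraries. Intervals of differences between groups rest on the standard errors of the fits, which include that spread. Floors of counts cover counting error only.

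The 10 genes and the lists were chosen with earlier results of these data known. The text names all 10, at most 3 genes past the threshold per other list and comparison with T0 (all genes of lists of up to 3), and the 3 genes most like each Id gene. Bmp7, Acvr2a, Tgfb2, Neurod4, the genes called only without T0 replicate 3 and the marker genes were named outside that rule, after their values were seen. The fits of the other lists without T0 replicate 3, and of their T3 calls without each T3 library, were chosen after seeing the data. Positions are from GENCODE vM1 (mm9), and all 10 overlap the loci of the FPKM table. Exon numbers are those of the longest coding transcript of each gene. The result of 1 gene of the listed pathway genes is not reported here.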

Additional observations from a re-analysis of the deposited data

How the results depend on the processing

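The number of the 10 genes called ranged, over the fits that left out 1 library each, from 1 to 5 at T1, 2 to 5 at T2 and 0 to 3 at T3 against T0, from 0 to 1 for T3 against T2, and from 3 to 5 for any difference over T0 to T3, with 5 without T0 replicate 3 and, without T3 replicate 4, Bmpr1a lost (adjusted p = 0.077) and Id1 gained (0.038). With only the libraries numbered 1 and 2 it was 6 at T1 and 5 at T2. For T3 against T0 it was 1 with DESeq2, 1 with no filter and 2 in the fit of all 12 libraries, and for T3 against T2 it was 2 with DESeq2 and 1 with no filter. With the replicate block the number was 2 at T1, 2 at T2, 0 for T2 against T1, 0 for T3 against T2 and 4 for any difference. Apart from DESeq2 and the fits without T0 replicate 3, the share of all genes called is not given for these settings. The counts alone therefore say nothing particular about the 10 genes. For T1 and T0 (r = 0, 0.16 and 0.1), T2 and T0 (-0.1, 0.02 and -0.17), and T3 and T2 (-0.07 and 0.29), not every same-numbered pair had a positive r. No block was possible for T3 against T0, which share 1 number.

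The log2 difference of a single gene changed sign in 20 cases. In fits without 1 library each, Id2 ranged from -0.282 to 0.279 at T1, -0.19 to 0.373 at T2 and -0.17 to 0.394 at T3, and Smad9 from -0.217 to 0.44 at T1 and -0.628 to 0.508 at T3, with -0.296 without T0 replicate 3. Bmpr1a ranged from -0.177 to 0.004 at T1. For T2 against T1 the ranges were -0.043 to 0.19 for Id1 and -0.091 to 0.126 for Id3. For T3 against T2 they were -0.876 to 0.257 for Id1, -0.014 to 0.051 for Id2 and -1.041 to 0.097 for Smad9, and for Smad7 the highest was 0.069. With only the libraries numbered 1 and 2, Id2 was at -0.289 at T1 and -0.212 at T2, and Smad9 at -0.286 and -0.043. With the replicate block Smad7 was at 0.048, and with no filter Id2 at -0.008, for T3 against T2. The cause was not tested. Smad6 and Id4 are limited by depth, with at most 32 and 7 counts in a library.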
